A study of Mus musculus with 20 samples.

Results

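The Wnt ligand, Frizzled receptor and secreted Frizzled-related protein genes were followed across 20 mouse arrays from 6 kinds of cells. All genes whose symbol in the platform annotation began with Wnt, Fzd or Sfrp and a digit were taken, which gave 34 of the 18193 genes measured: 19 Wnt genes, 11 Fzd genes and 4 Sfrp genes. One of the 11 Fzd genes, Fzd10os, is a long non-coding RNA gene beside Fzd10 and encodes no receptor. Each gene was read from its brightest probe set, by the mean of the 20 arrays. Of the 34 genes, 21 had several probe sets and 13 had 1 probe set. All values are log2 intensities, and a difference of 1 log2 unit is 2-fold. Probe sets bind their targets to different extents, so levels were compared between cells and not between genes.

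Germline pluripotent stem cells (gPS, 5 arrays) derive from round, strongly fluorescent colonies that appeared within 3 to 4 weeks where about 1000 germline stem cells had been plated per well on fibroblasts, and were then expanded in embryonic stem cell medium. Germline stem cells (GSC, 3 arrays) came from testes of the transgenic strain B6;CBA-Tg[Pou5f1-EGFP]2Mnn/J, in which the Oct4 promoter drives green fluorescent protein, so gPS cells and GSC both carry this transgene. GSC were kept on inactivated mouse embryonic fibroblasts with beta-estradiol, epidermal growth factor, basic fibroblast growth factor, glial cell line-derived neurotrophic factor and leukemia inhibitory factor. ESC-like cells (ESC_like, 3 arrays) came from testes at postnatal day 0 to 2, were supplied by another laboratory and were grown on fibroblasts with leukemia inhibitory factor. Neural stem cells (NSC, 3 arrays) were derived from Olig2-GFP embryonic stem cells, and mouse embryonic fibroblasts (MEF, 3 arrays) from C3H mice at E12.5. Embryonic stem cells (ESC, 3 arrays) were of a single line, RW4, and grew on fibroblasts with leukemia inhibitory factor. The groups differ in strain and medium as well as in cell type, and these cannot be told apart. The labels name no separate cultures or animals for the arrays of a group, so a p-value here reflects how far these arrays spread and no more, and the number of arrays limits the precision.

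Wnt proteins are secreted, lipid-modified ligands that bind Frizzled receptors at the cell surface. In the canonical branch, a Frizzled and an Lrp co-receptor together stabilise beta-catenin, which enters the nucleus and acts with TCF/LEF factors on target genes. Other branches run through co-receptors such as Ror2 and Ryk and set cell polarity and movement. Secreted Frizzled-related proteins share the ligand-binding domain of the receptors, lack the membrane part and bind Wnt proteins outside the cell. In mouse embryonic stem cells the canonical branch is known to support self-renewal, and in the nervous system it is known to act on neural progenitors.

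The array medians lay between 4.95 and 5.04, with a median of 4.98 over all values, and values near or below this median may hold background alone, which leaves fold sizes measured against them uncertain. Mean correlation of an array with the others of its group, across genes, was 0.978 in gPS array 1 and 0.983 in gPS array 2, against 0.984 to 0.987 in gPS arrays 3 to 5 and at least 0.991 in the other groups. Markers fixed for each kind of cell were present in its own group. A mean of 6 was reached by 5 of 5 pluripotency markers in gPS, ESC_like and ESC and by 5 of 5 germline markers in GSC. In NSC 4 of 5 neural markers reached it, and in MEF 9 of 9 fibroblast markers did. Outside these groups 6 was reached by up to 7 of 9 fibroblast markers (gPS, ESC_like) and 3 of 5 pluripotency markers (GSC). The same held for up to 2 of 5 germline markers (MEF) and 2 of 5 neural markers (MEF, ESC). Of 3 Leydig cell markers none reached 6 in any group, of 4 Sertoli cell markers at most 2 did in a group, and of 2 peritubular myoid markers Acta2, an actin that fibroblasts make as well, did in every group and Myh11 in none. Acta2 averaged 10.38 in gPS cells, 7.30 in GSC, 12.46 in ESC_like cells, 6.85 in NSC, 14.06 in MEF and 7.60 in ESC, higher in gPS and ESC_like arrays than in any ESC array. What this means for the results below was not tested. The 9 fibroblast markers were also measured in the cells grown on fibroblasts, and their values stand beside the results below.

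A moderated F test across the 6 groups, with a Benjamini-Hochberg adjusted p under 0.05 and a span of at least 1 log2 unit between the highest and the lowest group mean, called 17 of the 34 genes, against 51.5% of all genes. The families differed in this count: 9 of 11 Fzd genes and 3 of 4 Sfrp genes were called, and 5 of 19 Wnt genes. Most Wnt probe sets were dim. No group mean reached 6 for 14 of the 19 Wnt genes and for Fzd10os, 15 of the 34 genes, while 38.3% of all genes were dim in this sense. Among the called Fzd genes the highest mean lay in NSC for 4 genes, in GSC for 2, in ESC for 2 and in MEF for 1. Of the 5 called Wnt genes, 4 had their highest mean in MEF.

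**Figure D1:**
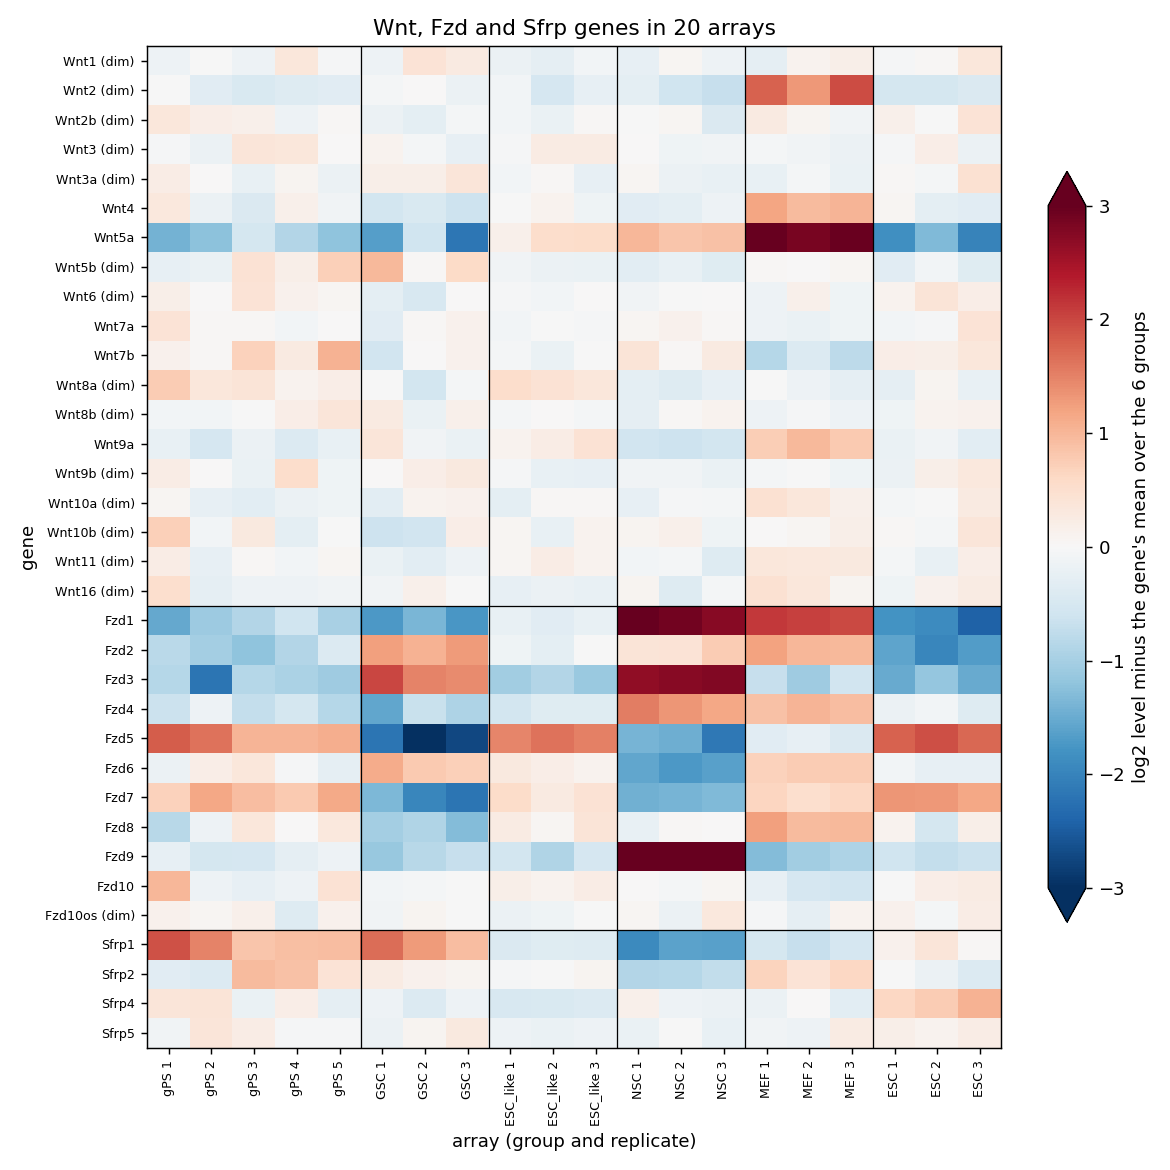
Log2 level minus the gene's mean over the 6 groups (colour, limited to 3 units either way) for the 34 genes (rows, dim genes marked) in the 20 arrays (columns, by group). Most Wnt rows are pale apart from Wnt2 and Wnt5a in MEF, whereas Fzd1, Fzd3 and Fzd9 stand out in NSC. Fzd1 stands out in MEF as well. Fzd5 and Fzd7 fall into a high set (gPS, ESC_like and ESC) and a low set (GSC and NSC). MEF lies with the high set for Fzd7 and between the sets for Fzd5.

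In the pairwise comparisons a gene was called at a limma adjusted p under 0.05 over all 18193 genes and a difference of at least 1 log2 unit. In gPS cells against GSC, the cells they came from, 3 of the 34 genes were higher (9.10% of all genes were) and 2 were lower (10.9% of all genes), all 5 of them Fzd genes. Together this is 14.7% of the 34 genes, against 20.0% of all genes. The median log2 difference of the 34 genes was 0.16 and that of all genes 0.02. In gPS cells against ESC, 2 genes were higher (2.36% of all genes) and the other 32 were not called, so that 5.88% of the 34 genes and 4.49% of all genes were called. In gPS cells against ESC_like cells, 1 gene was higher (1.11% of all genes) and 1 lower (3.74%), or 5.88% against 4.85% in either direction. In ESC_like cells against ESC, 3 genes were higher (5.11% of all genes) and 1 lower (2.10%), or 11.8% against 7.21%. GSC against ESC gave 4 higher genes (13.1% of all genes) and 3 lower (10.2%), or 20.6% against 23.3%. NSC against ESC gave 6 higher genes (11.4% of all genes) and 4 lower (10.0%), or 29.4% against 21.4%. MEF against ESC gave 8 higher genes, of a direction that 2269 of all 18193 genes shared, and 1 lower (10.9%), or 26.5% against 23.4%. Comparisons against ESC share the ESC arrays, and the comparisons of gPS cells share the gPS arrays.

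**Figure D2:**
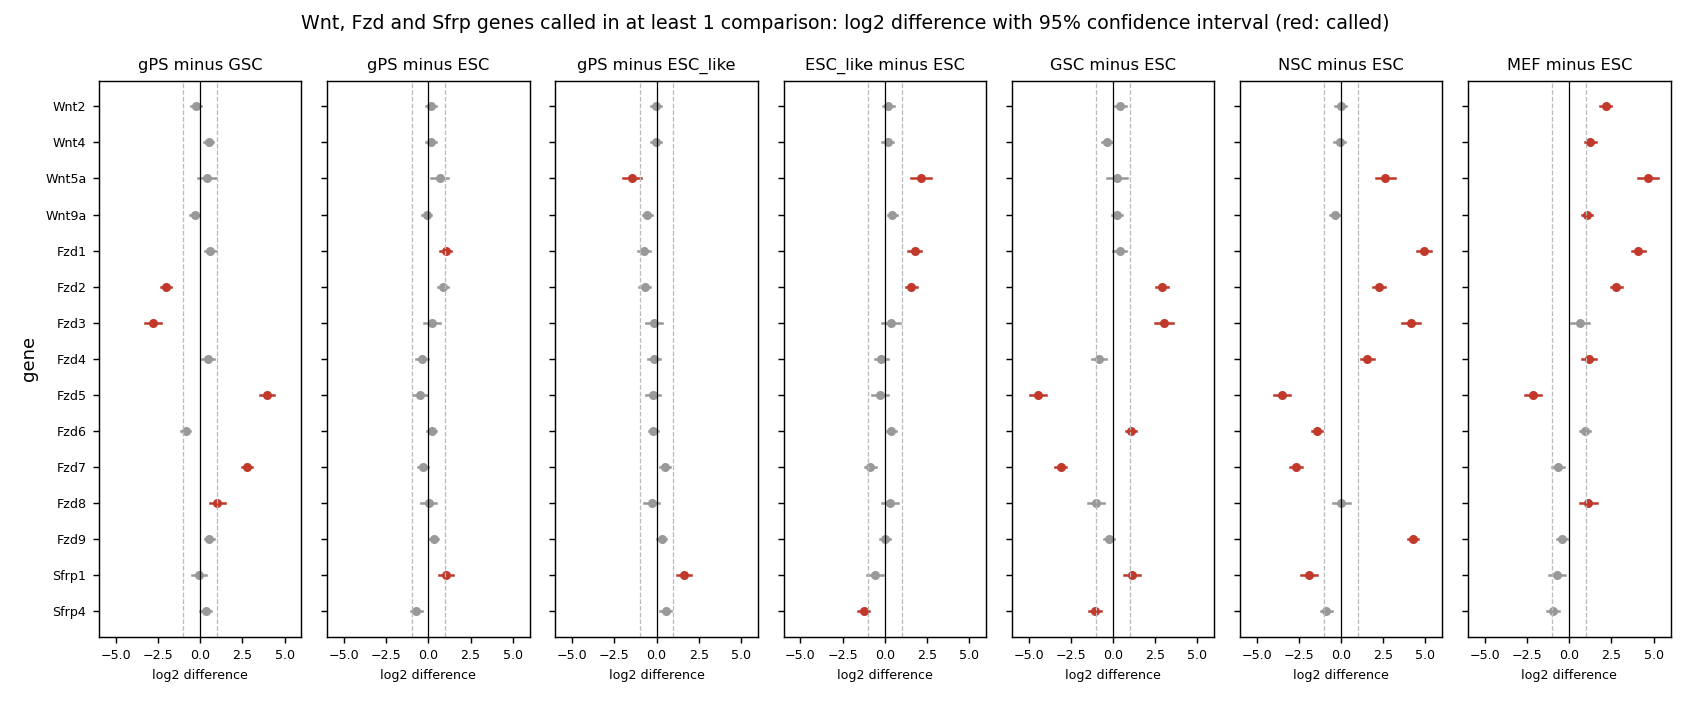
Log2 difference (x axis, with 95% confidence interval) in each of 7 comparisons (panels, the group named first minus the second) for the 15 genes called in at least 1 of them (rows); red points were called and dashed lines mark 1 log2 unit. The gPS minus GSC panel has called points only among Fzd2, Fzd3, Fzd5, Fzd7 and Fzd8, and in the gPS minus ESC panel the 2 called points, Fzd1 and Sfrp1, sit at the dashed line.

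Among the ligands, Wnt5a had the widest span of group means, 4.65 log2 units. Wnt5a is known for beta-catenin-independent signalling through Ror2. It was at 8.95, 8.80 and 8.91 in MEF, against 4.12, 4.62 and 3.96 in ESC, a difference of 4.65 (95% interval 4.07 to 5.23, adjusted p = 8.57e-12). Every MEF array lay more than 4 log2 units above every ESC array. In NSC the levels were 6.95, 6.79 and 6.83, which was 2.62 above ESC (2.04 to 3.20). In ESC_like cells Wnt5a was at 6.11, 6.48 and 6.51, higher than in ESC by 2.13 (1.55 to 2.71, adjusted p = 6.1e-06). NSC and ESC_like arrays formed a middle step that overlapped neither MEF nor ESC. In gPS cells the levels were 4.53, 4.72, 5.42, 5.08 and 4.74, against 4.30, 5.35 and 3.79 in GSC. These 2 groups overlapped each other, lay near the median of all values and did not differ beyond the threshold from ESC. The gPS level was below that of ESC_like cells, with a difference of -1.47 (-1.99 to -0.95, adjusted p = 0.00016). Of the 4 probe sets of Wnt5a, 2 were called lower in gPS than in ESC_like cells, and the mean of all 4 gave -0.99, under the fold threshold.

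Wnt2, a ligand of lung and placenta development, was called in MEF against ESC. Its levels were 6.03, 5.55 and 6.22 in MEF, against 3.74, 3.72 and 3.83 in ESC, and the difference was 2.17 (1.84 to 2.50, adjusted p = 1.93e-10). The arrays of gPS cells (4.24, 3.91, 3.80, 3.88 and 3.92), GSC (4.20, 4.28 and 4.09), ESC_like cells (4.18, 3.75 and 4.01) and NSC (3.98, 3.66 and 3.57) all lay under every MEF array. Its MEF mean of 5.93 left Wnt2 just inside the class of dim genes. Wnt4, needed for kidney and female gonad development, averaged 7.57 ± 0.12 in MEF and 6.32 ± 0.21 in ESC (SD, n = 3 each), a difference of 1.25 (0.92 to 1.57), and both its probe sets were called. Wnt9a, known from joint development, averaged 6.05 ± 0.12 in MEF and 5.02 ± 0.10 in ESC (SD, n = 3 each). The difference of 1.03 (0.75 to 1.32) lies close to the threshold and was not called without MEF array 2 or ESC array 3 (down to 0.97). The second probe set of Wnt9a gave 0.29 and the mean of both sets 0.66, neither of them called.

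Wnt7b, which acts in lung and brain development, was the fifth ligand called across the 6 groups. Its means were 7.49 ± 0.42 in gPS cells (SD, n = 5), 6.91 ± 0.38 in GSC, 6.97 ± 0.10 in ESC_like cells, 7.28 ± 0.19 in NSC, 6.37 ± 0.24 in MEF and 7.29 ± 0.08 in ESC (SD, n = 3 each). No pairwise comparison called it, and gPS minus GSC gave 0.58 (0.18 to 0.99). Wnt7a, a ligand of neural and limb development, had group means between 6.68 and 6.94 with this probe set.

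The other 13 Wnt genes were dim and, with the brightest probe set, were not called in any comparison: Wnt1, Wnt2b, Wnt3, Wnt3a, Wnt5b, Wnt6, Wnt8a, Wnt8b, Wnt9b, Wnt10a, Wnt10b, Wnt11 and Wnt16. Their group means spanned 0.20 to 0.83 log2 units. A second probe set of Wnt5b was called in gPS minus GSC (-1.40) and in GSC minus ESC (2.38). The 13 genes hold ligands of several early tissues. Among them were Wnt3 and Wnt3a, ligands of the primitive streak, at means of 2.84 to 3.10 and of 4.83 to 5.23. Wnt1, a ligand of the midbrain, was at 3.80 to 4.15. Wnt6 averaged 5.82 in gPS cells, 5.41 in GSC and 5.89 in ESC. Wnt8a, a ligand of the early embryo, averaged 4.02 ± 0.25 in gPS cells (SD, n = 5), against 3.46 ± 0.30 in GSC and 3.52 ± 0.20 in ESC (SD, n = 3 each). Its gPS minus GSC difference of 0.56 passed the adjusted p (0.00237) without reaching the fold threshold, at levels under the median of all values. Whether such probe sets report transcript or background cannot be read from these values.

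With the brightest probe sets, the 5 genes called between gPS cells and GSC were all Fzd genes. They are 14.7% of the 34 genes, against 20.0% of all genes. Second probe sets of the ligands Wnt5b (-1.40) and Wnt7b (1.01) were called there as well. In gPS cells against GSC, Fzd5, Fzd7 and Fzd8 were higher and Fzd2 and Fzd3 were lower, while 6 of the 11 Fzd genes were not called. In bulk samples, fewer cells of a type and less RNA per cell cannot be told apart.

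Fzd5, a receptor needed for blood vessel formation in the mouse yolk sac, showed the largest difference of the 34 genes in this comparison. It had 9.02, 8.83, 8.22, 8.21 and 8.29 in gPS cells, against 5.02, 4.17 and 4.47 in GSC. The difference was 3.96 (95% interval 3.54 to 4.38), a 15.6-fold higher intensity (adjusted p = 9.16e-13), and the groups lay 3.20 log2 units apart at their nearest arrays. Both probe sets were called, the other with 1.65. The GSC mean of 4.55 lay under the median of all values (4.98), which leaves fold sizes against it uncertain. The levels were 8.68, 8.83 and 8.71 in ESC_like cells and 5.80, 5.73 and 5.06 in NSC. MEF had 6.86, 6.96 and 6.77 and ESC had 8.97, 9.14 and 8.93. The 3 pluripotent groups were high, MEF was intermediate, and NSC and GSC were low. Against ESC, Fzd5 was lower in GSC (-4.46), NSC (-3.48) and MEF (-2.15), and gPS cells, at -0.50 (-0.92 to -0.08, adjusted p = 0.0784), did not pass. Within gPS cells, arrays 1 and 2 were higher than arrays 3 to 5, and without arrays 1 and 2 gPS minus GSC was 3.69.

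Fzd7, known in human embryonic stem cells as a receptor that supports the undifferentiated state, followed the same order at its ends. It had 8.70, 9.18, 8.94, 8.79 and 9.14 in gPS cells, against 6.66, 6.06 and 5.81 in GSC. The difference was 2.77 (2.46 to 3.08, adjusted p = 1.93e-12), which is 6.82-fold, with a gap of 2.04 between the nearest arrays. The levels were 8.56, 8.28 and 8.45 in ESC_like cells and 6.57, 6.62 and 6.68 in NSC. MEF had 8.65, 8.51 and 8.64 and ESC had 9.34, 9.32 and 9.18. Unlike Fzd5, Fzd7 had a MEF mean (8.60) between those of ESC_like cells (8.43) and ESC (9.28), with MEF minus ESC at -0.68 (-1.03 to -0.34). Against ESC it was lower in GSC (-3.10) and in NSC (-2.66). The second probe set of Fzd7 gave 0.90 in gPS minus GSC, -0.68 in GSC minus ESC and -0.24 in NSC minus ESC. It was called in none of these comparisons.

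The promoters of Fzd5 and Fzd7, which were high in the pluripotent groups, and of Fzd1 and Fzd9, which were highest in NSC, are printed for comparison. Fzd7 (mean 8.60) and Fzd1 (9.16) were high in MEF as well. Each run is the 250 bases upstream of the gene's start in the RefSeq promoter table (GRCm38.p6), 5′ to 3′ on the gene's strand. Capitals mark matches on either strand to the GC box GGGCGG and to the TCF/LEF motif CTTTGAT or CTTTGTT. Fzd5 lies at chr1:64737751-64738000 on the minus strand, Fzd7 at chr1:59481897-59482146 on the plus strand, Fzd1 at chr5:4758217-4758466 on the minus strand and Fzd9 at chr5:135251048-135251297 on the minus strand.
Fzd5: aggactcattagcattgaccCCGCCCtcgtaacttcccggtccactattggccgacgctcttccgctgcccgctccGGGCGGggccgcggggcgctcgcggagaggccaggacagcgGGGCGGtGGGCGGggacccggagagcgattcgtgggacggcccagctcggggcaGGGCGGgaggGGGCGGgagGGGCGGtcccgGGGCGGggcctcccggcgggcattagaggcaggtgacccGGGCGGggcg
Fzd7: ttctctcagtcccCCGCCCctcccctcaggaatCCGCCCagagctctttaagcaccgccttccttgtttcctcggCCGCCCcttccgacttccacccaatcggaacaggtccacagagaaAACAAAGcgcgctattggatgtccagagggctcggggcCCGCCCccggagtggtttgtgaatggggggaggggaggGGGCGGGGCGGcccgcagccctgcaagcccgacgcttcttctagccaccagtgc
Fzd1: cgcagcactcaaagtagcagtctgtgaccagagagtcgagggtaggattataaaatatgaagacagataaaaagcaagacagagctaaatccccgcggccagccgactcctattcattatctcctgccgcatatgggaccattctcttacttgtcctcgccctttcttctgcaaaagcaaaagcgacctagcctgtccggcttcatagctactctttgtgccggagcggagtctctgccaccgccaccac
Fzd9: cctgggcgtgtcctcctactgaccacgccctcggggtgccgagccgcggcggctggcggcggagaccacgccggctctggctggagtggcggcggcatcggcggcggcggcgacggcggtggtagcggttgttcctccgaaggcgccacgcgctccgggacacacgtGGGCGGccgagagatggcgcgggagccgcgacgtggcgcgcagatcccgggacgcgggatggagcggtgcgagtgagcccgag
Fzd5 held 9 GC boxes, 32 CpG dinucleotides and no TCF/LEF match, and Fzd7 held 6 GC boxes (2 of them overlapping), 17 CpG and 1 TCF/LEF match that starts at base -130. Fzd9 held 1 GC box and 42 CpG, and Fzd1 held neither motif and 12 CpG. Of the 34 genes, 23 had an entry, with 26 starts in all. A GC box was found in 19 of these 26 upstream windows and a TCF/LEF match in 3, against 32.7% and 8.06% of all 32851 windows in the table. The median number of CpG was 22.5 in the 26 windows and 6 in all windows. A match is a description of these letters and not a bound site, and a missing match says nothing on the factor.

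Fzd2 and Fzd3 went the other way between gPS cells and GSC. Fzd2, which can pair with Ror2 as a Wnt5a receptor, had 6.87, 6.66, 6.48, 6.80 and 7.28 in gPS cells, against 8.91, 8.73 and 8.96 in GSC. The difference was -2.04 (-2.35 to -1.74, adjusted p = 2.12e-10), with no overlap, and all 3 probe sets were called. Its levels were 7.55, 7.38 and 7.66 in ESC_like cells, 8.06, 8.09 and 8.44 in NSC, 8.90, 8.67 and 8.65 in MEF and 6.11, 5.73 and 6.00 in ESC. ESC had the lowest level, and against it Fzd2 was higher by 2.92 in GSC, 2.79 in MEF, 2.25 in NSC and 1.58 in ESC_like cells. GSC and MEF arrays overlapped at the top. In gPS cells the difference from ESC was 0.87 (0.56 to 1.18, adjusted p = 0.000165), under the fold threshold, and 1 of the 3 probe sets was called with 1.43.

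Fzd3, a receptor of the planar polarity branch that guides axon growth in mice, had 5.69, 4.36, 5.69, 5.60 and 5.48 in gPS cells, against 8.56, 8.05 and 7.96 in GSC. The difference was -2.82 (-3.30 to -2.35, adjusted p = 1.22e-09), and gPS array 2 lay far under the other 4 gPS arrays. Without arrays 1 and 2 the difference was -2.60, and 5 of 6 probe sets were called. Levels were 5.51, 5.68 and 5.43 in ESC_like cells, 9.21, 9.28 and 9.32 in NSC, 5.86, 5.49 and 5.98 in MEF and 5.03, 5.38 and 5.04 in ESC. GSC and NSC were the high groups, by 3.04 and 4.12 against ESC, and no array of these groups overlapped one of the other 4.

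Fzd8, a receptor of the canonical branch, rested on small differences at low levels. It had 4.82, 5.52, 6.01, 5.67 and 5.98 in gPS cells, against 4.64, 4.76 and 4.37 in GSC. Their nearest arrays lay 0.06 log2 units apart, and the difference of 1.01 (0.57 to 1.45, adjusted p = 0.000355) fell under the fold threshold when any of 4 single arrays was left out, with 0.90 as the lowest value. The levels were 5.92, 5.73 and 6.05 in ESC_like cells, 5.44, 5.69 and 5.66 in NSC, 6.90, 6.61 and 6.64 in MEF and 5.78, 5.14 and 5.83 in ESC. MEF arrays were the highest, 1.13 above ESC (0.64 to 1.62) and 0.91 without ESC array 2, which is not called, and the second probe set was called in neither comparison. Fzd6, a planar polarity receptor known for hair patterning, came near the threshold in gPS minus GSC, at -0.86 (-1.12 to -0.60).

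**Figure D3:**
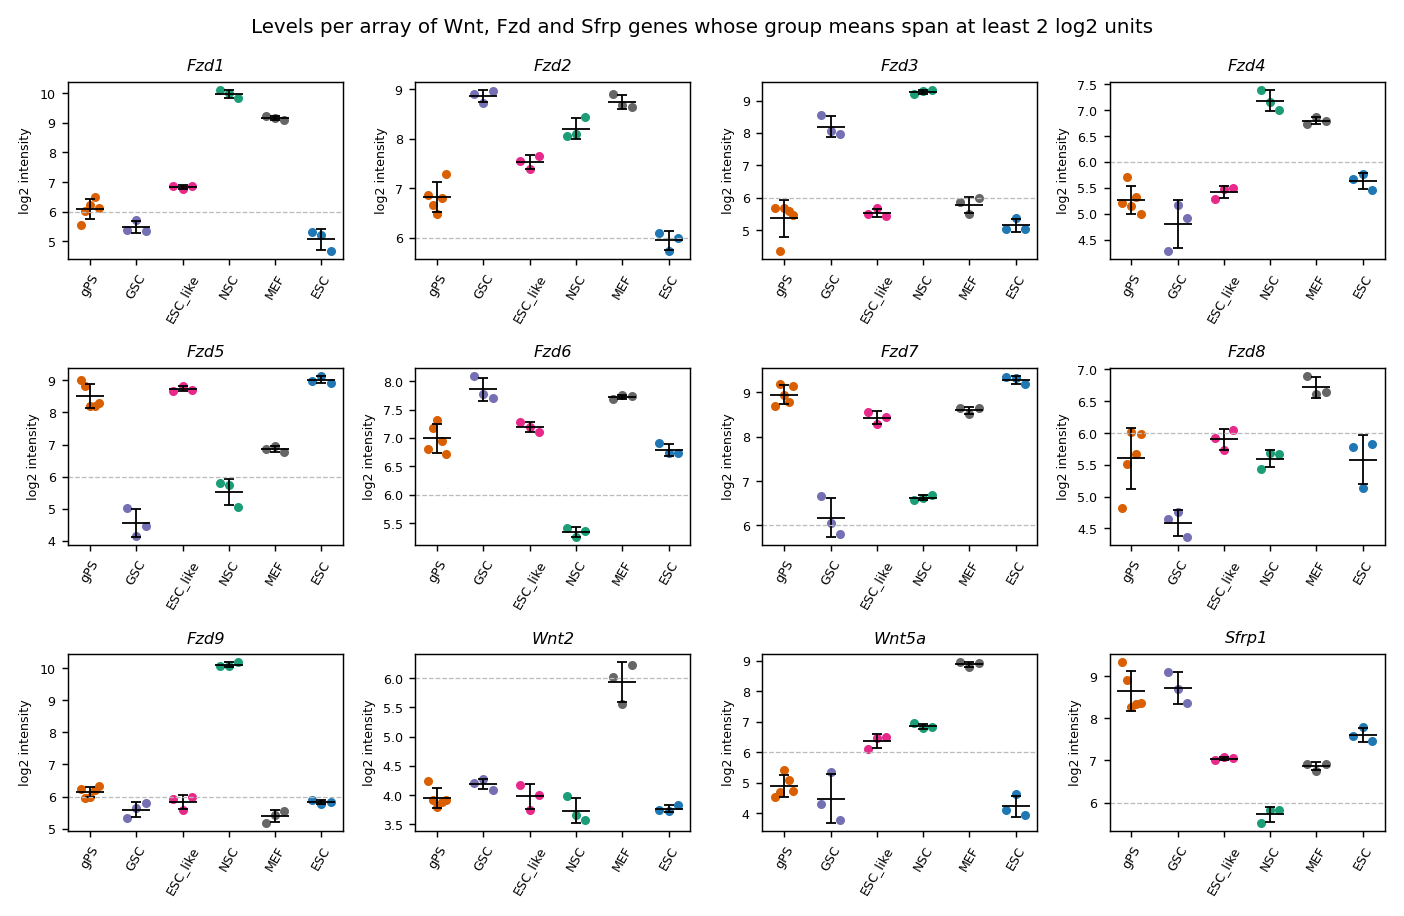
Log2 intensity per array (points) with group mean and SD (black bars) in 6 groups (x axis) for the 12 genes whose group means span at least 2 log2 units; the dashed line marks 6. Fzd5 and Fzd7 are low in GSC and NSC, Fzd3 is high in GSC and NSC, Fzd9 is near 10 in the 3 NSC arrays and near 6 or lower in all others, and Sfrp1 is higher in gPS cells and GSC than in the other 4 groups.

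NSC carried the other large receptor differences. Fzd9, known from hippocampal progenitors of the mouse, had 10.05, 10.07 and 10.19 in NSC, against 5.89, 5.75 and 5.82 in ESC. The difference of 4.28 (3.99 to 4.58, adjusted p = 6.13e-16) is 19.5-fold, from the gene's only probe set. All other arrays lay at 6.33 or lower, with 6.24, 5.95, 5.98, 6.20 and 6.33 in gPS cells, 5.34, 5.65 and 5.79 in GSC, 5.92, 5.57 and 5.98 in ESC_like cells and 5.18, 5.42 and 5.56 in MEF.

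Fzd1, a receptor of the canonical branch, had 10.10, 10.00 and 9.83 in NSC and 9.23, 9.16 and 9.09 in MEF, against 5.31, 5.21 and 4.67 in ESC. These were differences of 4.92 (4.53 to 5.30) and 4.09 (3.70 to 4.48), and both probe sets were called in each. NSC and MEF arrays did not overlap each other or any other group. The levels were 5.56, 6.02, 6.21, 6.49 and 6.12 in gPS cells, 5.36, 5.73 and 5.34 in GSC and 6.87, 6.75 and 6.88 in ESC_like cells. ESC_like cells were above ESC by 1.77 (1.38 to 2.16, adjusted p = 3.53e-07), and gPS cells by 1.02 (0.67 to 1.37, adjusted p = 0.00012). The second probe set was called in neither of these comparisons, and in gPS minus ESC leaving out 1 array (gPS 3, gPS 4 or ESC 3) ended the call, with differences down to 0.82.

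Fzd4, the receptor of Norrin in retinal vessels, had 7.39, 7.17 and 7.00 in NSC and 6.73, 6.87 and 6.79 in MEF, against 5.67, 5.77 and 5.46 in ESC. It was higher by 1.55 (1.16 to 1.95) and 1.16 (0.77 to 1.56). Of its 3 probe sets 2 were called in NSC and 1 in MEF, and the mean of all 3 gave 0.62 in MEF, which is not called. No array of gPS cells (5.20, 5.71, 5.14, 5.32 and 4.99), GSC (4.28, 5.18 and 4.93) or ESC_like cells (5.29, 5.48 and 5.50) reached 6. Fzd6 was lowest in NSC, with 5.42, 5.26 and 5.36, against 6.91, 6.73 and 6.73 in ESC, a difference of -1.45 (-1.74 to -1.16). It was highest in GSC, with 8.09, 7.77 and 7.71, which is 1.06 above ESC (0.77 to 1.35) and was not called without GSC array 1 (0.94). MEF (7.68, 7.75 and 7.73), ESC_like cells (7.28, 7.19 and 7.10) and gPS cells (6.80, 7.18, 7.32, 6.95 and 6.72) lay between these ends. Only 1 of the 3 probe sets of Fzd6 was called in either comparison. Fzd10 and Fzd10os spanned 0.61 and 0.20 log2 units over the group means and were called nowhere.

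Of the 4 inhibitor genes, Sfrp1 alone was called between gPS cells and ESC or ESC_like cells. Sfrp1, a secreted Wnt-binding protein, had 9.34, 8.92, 8.26, 8.34 and 8.37 in gPS cells, against 7.01, 7.07 and 7.05 in ESC_like cells and 7.57, 7.79 and 7.47 in ESC. Every gPS array lay above every ESC_like and ESC array. The differences were 1.60 (1.18 to 2.02, adjusted p = 4.54e-06) from ESC_like cells and 1.04 (0.62 to 1.45, adjusted p = 0.000592) from ESC. GSC, with 9.11, 8.71 and 8.35, overlapped gPS cells, and gPS minus GSC was -0.08 (-0.49 to 0.34). GSC lay above ESC by 1.11 (0.65 to 1.58), and by 0.92 without GSC array 1, which is not called. NSC (5.52, 5.83 and 5.81) was lowest, with a difference of -1.89 from ESC (-2.35 to -1.42), and MEF had 6.91, 6.75 and 6.93. Arrays 1 and 2 held the highest gPS values, and without them gPS minus ESC was 0.71 (adjusted p = 0.000675), under the fold threshold, and gPS minus ESC_like was 1.28. The call against ESC was also lost without gPS array 1, gPS array 2 or ESC array 3 alone (down to 0.86). Of the 5 probe sets, 2 were called in gPS minus ESC, in gPS minus ESC_like and in GSC minus ESC, where the others ranged down to -0.57, and with the mean of all 5 none of these 3 comparisons was called.

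Sfrp2 averaged 6.85 ± 0.65 in gPS cells (SD, n = 5), 6.70 ± 0.09 in GSC, 6.57 ± 0.07 in ESC_like cells, 5.73 ± 0.07 in NSC, 7.12 ± 0.13 in MEF and 6.35 ± 0.20 in ESC (SD, n = 3 each). It was called across the 6 groups and in no pairwise comparison. Its gPS arrays fell apart, with 6.22 and 6.14 in arrays 1 and 2 and 7.50, 7.44 and 6.97 in arrays 3 to 5, so that gPS cells covered the levels of 4 other groups. Sfrp4 was highest in ESC, with a mean of 7.46 ± 0.21, against which ESC_like cells at 6.20 ± 0.04 and GSC at 6.41 ± 0.15 (SD, n = 3 each) were lower, by differences of -1.26 (-1.61 to -0.91) and -1.05 (-1.40 to -0.70). The GSC call was lost without GSC array 2 or ESC array 3 (up to -0.93). In gPS cells Sfrp4 averaged 6.74 ± 0.31 (SD, n = 5), and its difference from ESC of -0.72 (-1.03 to -0.41, adjusted p = 0.00121) stayed under the fold threshold. Sfrp5 had group means between 5.75 and 6.08 and was called nowhere.

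The level of Wnt5a, Fzd1 and Fzd2 in MEF, the kind of cell used as feeders, was set beside 9 fibroblast markers. These were Col1a1, Col1a2, Col3a1, Col5a2, Lum, Postn, Thy1, Twist1 and Prrx1. On the linear scale, their summed level as a percent of the MEF mean was 3.74 to 10.3 in gPS arrays, 4.67 to 5.80 in GSC, 16.1 to 20.6 in ESC_like cells, 3.25 to 4.23 in NSC and 0.687 to 0.879 in ESC. Against ESC, 7 of the 9 markers were higher in gPS cells, 7 in GSC and 8 in ESC_like cells, and 8 were lower in gPS than in ESC_like cells. No marker was at 0, since intensities have no zero here, and 0 of the 9 reached a mean of 6 in ESC.

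Wnt5a stood at 14.6% to 19.3% of its MEF mean in ESC_like arrays, and at 4.89% to 9.08% in gPS, 2.93% to 8.64% in GSC and 3.29% to 5.21% in ESC arrays. Fzd1 stood at 18.9% to 20.6% in ESC_like cells, 8.27% to 15.8% in gPS cells and 4.46% to 6.96% in ESC. In ESC_like and gPS cells both shares overlap the marker share, as does that of Wnt5a in GSC, while in ESC both lie above it. The part of feeder cells in the Wnt5a and Fzd1 differences of ESC_like and gPS cells was not tested. Fzd2 stood at 20.9% to 36.3% in gPS cells, 98.8% to 116% in GSC, 38.9% to 47.2% in ESC_like cells and 12.4% to 16.1% in ESC, above the marker share in each of these groups. The part of feeder cells in the Fzd2 differences was not tested either. The ESC_like cells came from another laboratory and their arrays have later sample numbers, so that cell type and source cannot be told apart for their differences.

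**Figure D4:**
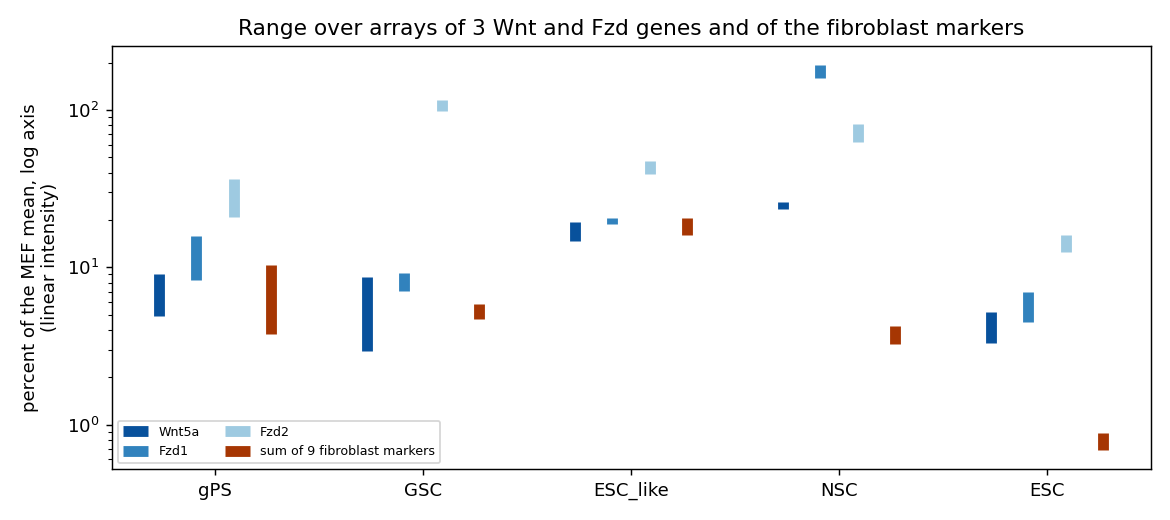
Linear intensity as a percent of the MEF mean (y axis, log scale) for Wnt5a, Fzd1, Fzd2 and the sum of 9 fibroblast markers in 5 groups (x axis); bars run from the lowest to the highest array. In ESC_like cells Wnt5a (14.6 to 19.3), Fzd1 (18.9 to 20.6) and the marker sum (16.1 to 20.6) lie together. Single markers in ESC_like cells differed widely, from 7.11 to 16.4 for Col1a1 up to 35.8 to 53.4 for Postn. In gPS cells Wnt5a and Fzd1 overlap the marker sum as well. Fzd2 lies above the marker sum in all 5 groups, though not above every single marker.

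The rest of the pathway was read from 8 lists, of which 59 of 62 genes were measured here. In gPS cells against GSC, 10 of the 59 genes were higher and 11 lower (9.10% and 10.9% of all genes were), with a median log2 difference of -0.04, against 0.02 for all genes. Of the 7 measured targets 3 were higher: Myc, a growth regulator, by 3.59, Cdx1, a homeobox gene, by 1.88 and Lef1, a nuclear partner of beta-catenin, by 1.17. Both changes in ligand release ran upward: Porcn, the enzyme that attaches the lipid to Wnt proteins, averaged 8.12 ± 0.52 in gPS cells (SD, n = 5) and 5.15 ± 0.13 in GSC (SD, n = 3), a difference of 2.98, and Wls, which carries Wnt proteins to the surface, was higher by 1.87. Lgr4, an R-spondin receptor, was higher by 2.40 and Tcf7l1, a TCF factor that represses targets in embryonic stem cells, by 2.02. Ryk, a Wnt co-receptor, and Dvl1, which relays the signal inside the cell, were lower, with differences of -1.42 and -1.60. Gpc4, a heparan sulfate carrier, was higher (1.35), and Gsk3b, a kinase that marks beta-catenin for breakdown, was lower (-1.30). Wif1, a secreted Wnt inhibitor, was at 2.76 in gPS cells and 4.99 in GSC (-2.23), both near background, and Dkk3, of the Dickkopf family, was lower by a difference of -1.03. Of 8 measured nuclear factors 2 were higher (Tcf7l1 and the corepressor Tle4, 1.86) and 4 lower, Tle1 (-1.30) and Bcl9 (-1.23) among them, and of 6 planar polarity genes 1 was higher (Vangl1, 2.10) and 2 lower (Prickle1, -2.07, and Celsr2, -1.39). Several of these calls rested on the probe set: the mean of all probe sets of a gene gave 0.95 for Wls, -0.34 for Gsk3b, -0.99 for Dkk3, -0.66 for Prickle1, -0.77 for Celsr2 and -0.86 for Ryk, and without probe sets ending in x_at, s_at or a_at Ryk was at -0.06 and Dvl1 at -0.89, none of them called. Bcl9 was at -0.88 and not called without GSC array 1, and Dkk3 was at -0.93 without gPS array 4.

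In gPS cells against ESC, 7 of the 59 genes were higher (2.36% of all genes were) and 52 were not called (median 0.18, against 0.02 for all genes). Of the 7 measured targets, 4 were called higher. Ccnd1, a cyclin that drives entry into the cell cycle, differed by 2.38, Cdx1 by 1.84, Axin2, a feedback inhibitor and common readout of the canonical branch, by 1.69, and Sp5, a transcription factor, by 1.00. Axin2 had 6.91, 6.65, 8.00, 7.48 and 8.22 in gPS cells, against 5.86, 5.86 and 5.56 in ESC. Every gPS array was above every ESC array (adjusted p = 0.0001). Sp5 was at 5.96 and 5.81 in gPS arrays 1 and 2, within the ESC range of 5.34 to 6.00, and at 7.29, 7.33 and 7.23 in arrays 3 to 5. Without arrays 1 and 2 the Sp5 difference was 1.56 and that of Axin2 was 2.14. The Sp5 difference lay at the fold threshold, and its call was lost when gPS array 3, 4 or 5 or ESC array 2 was left out (down to 0.81), with quantile normalization, with centred arrays, with the compared groups alone and with the replicate block. Lef1 and Nkd1, 2 further targets, differed by 0.81 and 0.18 and were not called. Porcn (1.47), the co-receptor gene Ror2 (1.73) and Prickle1 (1.43) made up the other 3 genes. With the mean of all probe sets Ror2 was at 0.97 and Prickle1 at 0.49, and neither was called. Among the genes called here, Ccnd1 (3.95), Prickle1 (2.24) and Ror2 (1.84) were also higher in MEF than in ESC. Porcn was lower in MEF (-1.51), and the MEF minus ESC differences of Axin2, Cdx1 and Sp5 were not called. Their means in MEF and ESC were 5.59 and 5.76 (Axin2), 4.05 and 4.34 (Cdx1) and 5.77 and 5.72 (Sp5). Of the 9 fibroblast markers, 7 were called above ESC in gPS cells, and the part of feeder cells was not tested.

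**Figure D5:**
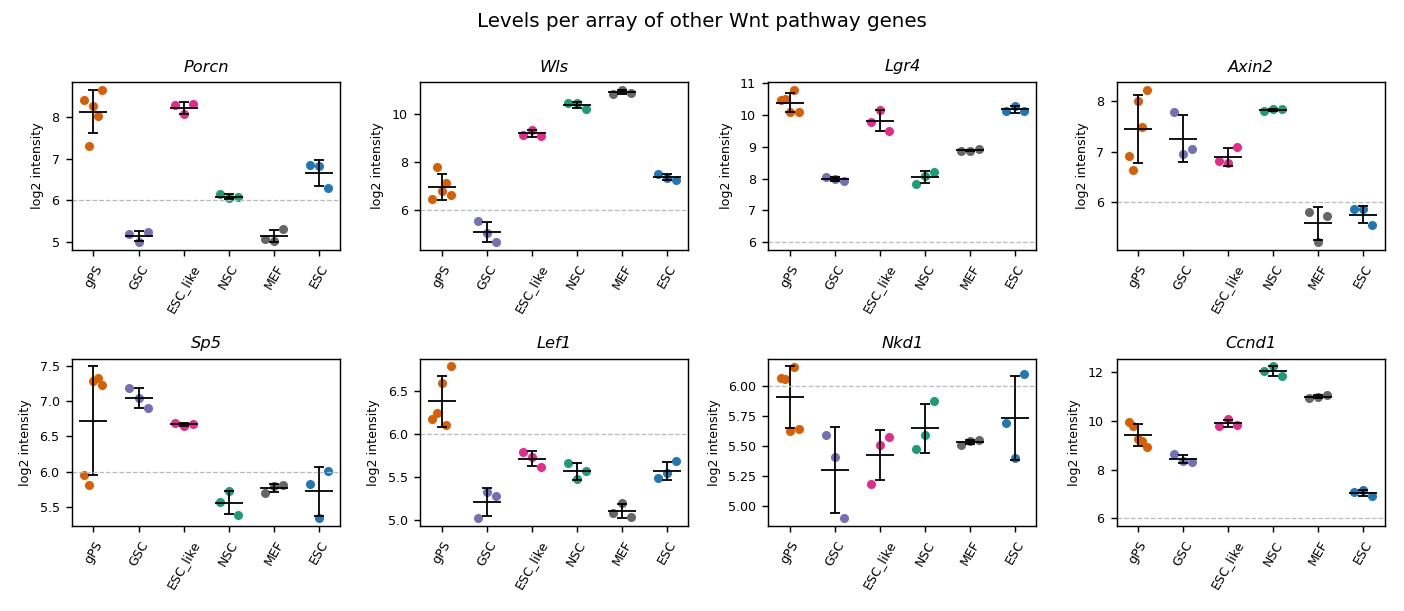
Log2 intensity per array (points) with group mean and SD (black bars) in 6 groups (x axis) for 8 other Wnt pathway genes; the dashed line marks 6. Porcn is high in gPS and ESC_like cells and low in GSC and MEF, Axin2 is lowest in MEF and ESC, and Sp5 in gPS arrays 1 and 2 lies under arrays 3 to 5.

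ESC_like cells against ESC gave 11 higher genes of the 59 (5.11% of all genes were) and 48 not called (median 0.12, against -0.09 for all genes). Ccnd1 (2.87), Prickle1 (2.78), Cdx1 (2.11), Gpc4 (2.08), Wls (1.82), Porcn (1.56) and Axin2 (1.14) were among them. With the mean of all probe sets Prickle1 was at 0.80 and Axin2 at 0.61, and neither was called. In gPS against ESC_like cells 3 genes were lower (3.74% of all genes were), Wls (-2.24), Prickle1 (-1.36) and Gpc4 (-1.19), and 56 were not called. The mean of all probe sets ended the calls of Prickle1 (-0.31) and Gpc4 (-0.95), and Prickle1 was at -0.80 and not called without gPS arrays 1 and 2. Axin2 and Sp5 differed by 0.55 and 0.05 and were not called. Wls averaged 6.93 in gPS cells, 9.18 in ESC_like cells and 10.90 in MEF. Ccnd1, Gpc4 (2.92) and Prickle1 were likewise higher in MEF than in ESC. In that comparison Porcn was lower (-1.51), and Cdx1 (-0.28) and Axin2 were not called. Of the 9 fibroblast markers, 8 were higher in ESC_like cells than in ESC and 8 were lower in gPS than in ESC_like cells, and the part of feeder cells in these differences was not tested.

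GSC against ESC gave 18 higher and 7 lower genes of the 59, against 13.1% and 10.2% of all genes (median 0.20, against -0.0012 for all genes). Prickle1 (3.49), Axin2 (1.50) and Sp5 (1.32) were higher, and Myc (-3.41), Wls (-2.29), Lgr4 (-2.19), Vangl1 (-2.14), Tcf7l1 (-1.63) and Porcn (-1.51) were lower. With the mean of all probe sets Axin2 was at 0.76 and Lgr4 at -0.997, and neither was called. NSC against ESC gave 17 higher and 6 lower genes, against 11.4% and 10.0% of all genes (median 0.09, against -0.10), with Ccnd1 (5.00), the R-spondin receptor Lgr5 (3.70), Wls (3.01) and Axin2 (2.07) higher and Lgr4 (-2.13) lower. MEF against ESC gave 14 higher and 6 lower genes, where 23.4% of all genes were called in either direction (median -0.0064, against -0.10), with Ccnd1 (3.95), the secreted antagonist Dkk2 (3.89), Wls (3.55), Gpc4 (2.92) and Rspo3 (2.75), an R-spondin, higher and Tle4 (-3.54) lower. Axin2 did not differ beyond the threshold between MEF and ESC (-0.17, adjusted p = 0.682). Of the 4 targets given for every comparison, Nkd1 was called in none, Lef1 in gPS minus GSC alone (1.17), Sp5 in gPS minus ESC and GSC minus ESC, and Axin2 in the comparisons with ESC of all groups other than MEF. Of these, the Axin2 calls in GSC and in ESC_like cells were lost with the mean of all probe sets.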

How the data were processed

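Total RNA labelled with biotin by the One-Cycle procedure was put on Affymetrix arrays, per the labels' protocols. The values are log2 intensities of probe sets, deposited by the authors as RMA output. RMA corrects background, normalizes by quantiles and summarises the probes of a set, and it is named without a version in the submitters' processing notes. The sources used here do not say whether all 20 arrays went through RMA together. Values were used as deposited, with none missing.

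Among 45101 probe sets, 64 were controls and were left out, 34945 carried 1 gene symbol, 932 several and 9160 none. For 34741 of those with 1 symbol, the symbol was read from a RefSeq gene table through the gene identifier, and the rest kept the platform symbol. None of the 34 genes changed its symbol by this. The brightest probe set over all arrays stood for a gene, which gave 18193 genes and 69 probe sets for the 34 genes. One model with 6 group means and no covariate was fitted to all 20 arrays (limma 3.58.1, lmFit and eBayes, under R 4.3.3), and p-values of each of 7 comparisons were adjusted by Benjamini-Hochberg over all genes. A call needs an adjusted p under 0.05 and at least 1 log2 unit. Intervals are at 95%. The code was tested on simulated data.

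All of the 34 genes could be named. Levels of every array are given where group means span at least 2 log2 units and the F test passed. Of 8 other pathway lists, up to 4 called genes a list with the largest differences could be named in each comparison, and some of these are named, while Axin2, Lef1, Sp5 and Nkd1 could be named whatever their result. Genes and lists were chosen with earlier results of these data known. A dim gene has no group mean of 6 or more. Arrays were not paired by replicate number in the main fit. Over 45 same-numbered pairs of arrays the deviations from group means correlated at -0.17 to 0.27 across genes (median 0.02), and 7 pairs exceeded 0.1. Pairs with different numbers were not set beside these, so whether equal numbers share an effect was not tested. Alternatives were the mean of all probe sets, shared probe sets left out, quantile normalization, centred arrays, trend and robust eBayes, array weights, fewer groups, dim genes left out, a replicate block, other thresholds and each array left out. Promoters came from a RefSeq table (GRCm38.p6). Figures were drawn with Python 3.11.15 and matplotlib 3.10.9.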

Additional observations from a re-analysis of the deposited data

Results flagged for a closer look

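In the 5 gPS arrays, 6 of the 34 genes had an array farther from the others than Dixon's 95% critical value (0.71 for 5 arrays) allows, and chance flags about 1 in 20 groups. Fzd3 was at 4.36 in gPS array 2, against 5.48 to 5.69 in the other gPS arrays. Wnt7a was at 7.25 in gPS array 1, where the others had 6.75 to 6.88. Wnt16 was at 4.69 in gPS array 1, where the others had 3.91 to 4.08. Wnt2 was at 4.24 in gPS array 1, where the others had 3.80 to 3.92. Wnt1 was at 4.32 in gPS array 4, where the others had 3.82 to 3.95. Fzd10os was at 5.37 in gPS array 4, where the others had 5.82 to 5.92. Of these genes, Fzd3 alone was called in a comparison of gPS cells (gPS minus GSC), and that call held when array 2 was left out.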

How the results depend on the processing

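Of 39 called differences of single Wnt, Fzd and Sfrp genes, 27 were called under every alternative other than other thresholds, 21 also passed 2 log2 units, and none of the 39 reversed. Counts of called genes moved over 1.5 times as follows. With the adjusted p alone they were 10 higher and 4 lower in gPS minus GSC, 4 higher and 1 lower in gPS minus ESC, 3 and 4 in gPS minus ESC_like, 6 and 2 in ESC_like minus ESC, 6 lower in GSC minus ESC and 7 lower in MEF minus ESC. At 2 log2 units they were 0 higher in gPS minus ESC, 0 and 0 in gPS minus ESC_like, 1 and 0 in ESC_like minus ESC, 2 higher in GSC minus ESC, 2 lower in NSC minus ESC and 4 higher in MEF minus ESC. With the mean of all probe sets of a gene they were 0 higher in gPS minus ESC, 0 higher and 0 lower in gPS minus ESC_like and 5 higher in MEF minus ESC. In limma at an unadjusted p under 0.05, 12 of the 34 genes passed in gPS minus ESC and 9 in gPS minus ESC_like. With quantile normalization gPS minus ESC gave 1 higher, GSC minus ESC 2 higher and MEF minus ESC 3 lower, and with centred arrays gPS minus ESC gave 0 higher and MEF minus ESC 3 lower. In gPS minus ESC, array weights, the replicate block and leaving out gPS arrays 1 and 2 (chosen after seeing the data) each gave 1 higher. The replicate block ended 2 calls of single genes among the 34, Fzd8 in gPS minus GSC and Fzd1 in gPS minus ESC.

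Leaving out 1 array gave 0 to 2 higher genes in gPS minus ESC, 2 to 5 higher and 2 to 4 lower in GSC minus ESC, 7 to 8 higher and 1 to 3 lower in MEF minus ESC, 2 to 3 higher in gPS minus GSC and 16 to 18 genes differing among the 6 groups, of 17. Counting a gene whenever any probe set was called was also chosen after seeing the data. Of 105 called differences of other pathway genes that could be named, not all of which are, 70 were called under every alternative other than the thresholds, and Ryk in GSC minus ESC reversed, to -0.15 (adjusted p = 0.352), with probe sets ending in x_at, s_at or a_at left out. The causes were not tested. Dim probe sets limit what can be said of most Wnt ligands.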

Other observations

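Among the ligands, 3 genes differed in a probe set other than the brightest one, which the fit over all probe sets with 1 symbol brought out. Wnt7a, a ligand of neural and limb development, averaged 6.63 in NSC and 4.80 in ESC with 1 of its 3 probe sets, a called difference of 1.83, while its brightest probe set gave -0.02. Wnt5b, a relative of Wnt5a, averaged 4.41 in gPS cells, 5.80 in GSC and 3.42 in ESC with its second probe set. This set was called lower in gPS cells than in GSC (-1.40) and higher in GSC than in ESC (2.38), and the brightest set gave -0.34 and 0.79. Wnt7b averaged 5.94 in gPS cells and 4.92 in GSC with its second probe set, a called difference of 1.01, against 0.58 with the brightest set. Which probe set reports the transcript was not tested.

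Of the 34 genes, 8 form 4 pairs of neighbouring protein-coding genes: Wnt6 and Wnt10a, Wnt3a and Wnt9a, Wnt9b and Wnt3, and Wnt10b and Wnt1. In each pair at least 1 gene was dim. With its brightest probe set Wnt9a was higher in MEF than in ESC by 1.03, while its neighbour Wnt3a differed by -0.30 and was not called. The other 3 pairs held no called gene.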
